A study of Mus musculus with 6 samples.

Results

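The genes of glycolysis and of the response to hypoxia-inducible factor (HIF) were followed in mouse immature dendritic cells (imDCs) with and without fluid shear stress (FSS). They were 38 named genes, found by symbol in a table of 22899, and were taken as 24 glycolytic genes (glucose and lactate transport, the enzymes of the pathway and their regulators) and 14 HIF genes (subunits, oxygen sensors and other targets). All the cells came from bone marrow of male C57BL/6 mice aged 7 weeks, cultured over 7 days in GM-CSF at 20 ng/ml with IL-4 at 10 ng/ml, then selected by CD11c, so both groups carry those cytokines. One group of 3 libraries was kept static, and the other group of 3 was loaded for 3 h in a cone-plate device at 10 dyn/cm2. The libraries of each group are numbered 1 to 3. The comparison asks how RNA levels differ between loaded and static cells. No genotype or transgene is named in the labels, and whether animals were pooled is not given in the sources used here.

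Glycolysis splits glucose into pyruvate in the cytosol, and lactate dehydrogenase turns pyruvate into lactate when it does not enter mitochondria. HIF is a dimer whose alpha subunit is hydroxylated by the EGLN oxygen sensors and then marked for breakdown by the VHL ubiquitin ligase, so the protein can change without its messenger RNA. When the alpha subunit persists, HIF binds short DNA elements with the core ACGTG or GCGTG and raises many glycolytic genes. Activated dendritic cells are known for raising glycolysis early after a stimulus.

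Values are FPKM (fragment counts scaled by transcript length and by library size), a unit inferred from the deposited values. FPKM are per length, so levels of different genes can be set side by side, but only roughly. The annotation and the division of reads among gene copies are not given, and sequencing depth is unknown. Between 10390 and 10959 genes reached 1 FPKM in a library. Both libraries numbered 3 stood apart from the other 4 on the first principal component (48.5% of the variance), and the second (36.6%) separated FSS from static. Of 8 dendritic cell markers, Cd74, H2-Ab1, Itgax, Zbtb46, Batf3 and Ciita were above 10 FPKM in all 6 libraries, while Flt3 and Cd209a were below 1. The summed dendritic markers ran from 6170 to 7125 FPKM in static and from 5689 to 7097 in FSS libraries, and with the replicate block described next 3 of 6 tested fell (Itgax, Zbtb46 and Batf3; Zbtb46 alone also with scaling). Summed markers of macrophages ran from 318 to 402 FPKM in static and from 380 to 485 in FSS libraries, and 2 of 6 (Mertk and Adgre1) rose with the block, or 4 with block and scaling. Summed neutrophil markers ran from 290 to 521 and from 257 to 433 FPKM, and 1 of 7 tested (S100a8) fell with the block, while with block and scaling S100a8 fell and Ngp and Ltf rose. Of all tested genes, 7.73% rose and 25.1% fell with the block, and 19.2% rose and 16.8% fell with block and scaling. The mast cell and basophil sums were 3.71 to 6.12 and 4.03 to 6.21 FPKM, and the lymphoid and erythroid sums 1.81 to 5.36 and 2.15 to 3.91. The part of these cells in the results below was not tested, and in bulk RNA fewer cells of a type and less RNA per cell cannot be told apart.

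A pair of limma fits on log2(FPKM + 1) is given. Their p-values were adjusted by Benjamini and Hochberg's method across the 10899 genes tested, and 0.05 was the threshold. The first compares the groups alone and is meant wherever no block is named. The other adds the replicate number as a block, because libraries of one number deviated together. That pairing is read from these data and is not stated in the labels, which also do not say that replicates are separate cultures. The p-values therefore reflect only how these samples vary, and that variation may be technical. Over all tested genes the median difference was -0.12 log2, or 0.02 after median-ratio scaling. Blocked counts are therefore followed by those with block and scaling.

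RefSeq promoter windows (GRCm38.p6) matched 34 of the 38 members by symbol or gene ID. The 250 bases upstream of the start are shown for the 3 members that passed the test, for Ankrd37, which rose with the block, and for Pfkfb4, which fell with it. Capitals mark every ACGTG or GCGTG on either strand (on the lower strand they read CACGT or CACGC), and a palindrome counts on both strands. The windows lie at chr10:59323046-59323295 (plus strand) for P4ha1, chr11:54100674-54100923 (plus) for P4ha2, chr14:45318573-45318822 (minus) for Ero1l, chr8:45999851-46000100 (minus) for Ankrd37 and chr9:108991652-108991901 (plus) for Pfkfb4.
P4ha1: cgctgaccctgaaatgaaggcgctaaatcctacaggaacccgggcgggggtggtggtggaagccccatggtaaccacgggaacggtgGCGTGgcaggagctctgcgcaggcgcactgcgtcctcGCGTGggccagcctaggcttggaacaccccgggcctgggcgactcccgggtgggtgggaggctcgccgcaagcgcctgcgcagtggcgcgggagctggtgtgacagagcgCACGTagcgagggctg
P4ha2: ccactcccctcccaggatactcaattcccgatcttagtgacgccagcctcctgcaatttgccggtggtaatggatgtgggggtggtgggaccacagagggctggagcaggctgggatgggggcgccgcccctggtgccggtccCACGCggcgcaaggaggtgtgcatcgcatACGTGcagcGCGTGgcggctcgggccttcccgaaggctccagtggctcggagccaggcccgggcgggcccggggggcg
Ero1l: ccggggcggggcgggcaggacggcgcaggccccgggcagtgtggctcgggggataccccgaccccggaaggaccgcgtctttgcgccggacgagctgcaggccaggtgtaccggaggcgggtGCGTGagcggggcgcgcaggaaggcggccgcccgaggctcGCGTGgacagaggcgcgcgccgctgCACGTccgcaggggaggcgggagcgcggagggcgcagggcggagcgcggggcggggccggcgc
Ankrd37: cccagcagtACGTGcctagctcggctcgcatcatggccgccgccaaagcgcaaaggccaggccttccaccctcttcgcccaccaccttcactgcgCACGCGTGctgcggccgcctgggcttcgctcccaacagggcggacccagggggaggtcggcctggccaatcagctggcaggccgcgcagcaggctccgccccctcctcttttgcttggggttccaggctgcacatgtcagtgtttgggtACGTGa
Pfkfb4: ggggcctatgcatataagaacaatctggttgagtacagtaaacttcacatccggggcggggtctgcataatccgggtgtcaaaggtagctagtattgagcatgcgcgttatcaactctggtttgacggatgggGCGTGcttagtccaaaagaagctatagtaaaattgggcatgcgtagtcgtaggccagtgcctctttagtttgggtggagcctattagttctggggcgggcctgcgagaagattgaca

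P4ha1 held 3 cores (at positions -163, -126 and -16 from the start), P4ha2 also 3 (-107, -78 and -69), Ero1l 3 (-128, -88 and -63), Ankrd37 4 (-241, -155, -152 and -6) and Pfkfb4 1 (-117). Counting the window with most cores for each gene, 20 of 23 glycolytic genes (87.0%) and 10 of 11 HIF genes (90.9%) held at least 1. Among tested genes with a window the share was 61.8% of 8802, and among all genes with a window 41.5% of 27025. At least 2 cores were found for 13 of 23 glycolytic genes, 8 of 11 HIF genes and 31.9% of tested genes. Such a match is a description of the letters and not a binding site. Genes that passed a test under FSS and genes that did not both held cores: Ldha had 5 in 1 of its windows and Hk2 had 2, and neither passed either fit.

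Among the HIF genes P4ha1, P4ha2 and Ero1l rose under FSS, and none fell. That is 3 of 14 HIF genes higher and 0 lower, against 0.853% of all tested genes higher and 0.862% lower. With the block 8 of 14 rose and 0 fell (against 7.73% and 25.1% of all genes), and with block and scaling 10 rose and 0 fell (19.2% and 16.8%). P4ha2 was below 1 FPKM in every static library and was tested only through its FSS values. Without it the counts were 2 of 13 higher, 7 with the block and 9 with block and scaling, and 0 lower in each. The median HIF gene stood 0.53 log2 higher, where the median of all tested genes was -0.12, and the HIF median was 0.31, 0.89 and 0.35 in pairs 1 to 3. These HIF medians include P4ha2. The members were chosen with earlier results of these data known, so their counts beside those of all genes are a description.

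P4ha1 encodes the catalytic subunit of a collagen prolyl hydroxylase, an oxygen-dependent enzyme of the endoplasmic reticulum. It stood at 40.82, 37.89 and 34.31 FPKM in static libraries 1 to 3 and at 100.96, 98.69 and 66.96 in FSS libraries 1 to 3. Every FSS library was above every static one, by 2.47, 2.6 and 1.95 times within pairs 1 to 3. The log2 difference was 1.20 ± 0.20 (SE; limma adjusted p = 0.0407 without and 0.000764 with the block).

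P4ha2, the paralogous catalytic subunit, was at 0.46, 0.29 and 0.63 FPKM in static and 2.39, 3.81 and 2.01 in FSS libraries. All static values were below 1 FPKM, so the ratios within pairs (5.2, 13.1 and 3.19) rest on low levels, and the gene passed the filter on low values only through the FSS libraries. Its log2 difference was 1.33 ± 0.21 (SE; limma adjusted p = 0.035 without and 0.00248 with the block). P4ha1 remained the more abundant, at 25.9 to 42.2 times P4ha2 in FSS libraries against 54.5 to 131 times in static ones, without overlap.

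Ero1l encodes the oxidase that passes electrons to oxygen as new disulfide bonds form. Its levels were 41.99, 28.78 and 36.06 FPKM without and 112.13, 124.81 and 69.34 FPKM with FSS. The lowest FSS library, number 3, was still above the highest static one. The log2 difference was 1.47 ± 0.26 (SE; limma adjusted p = 0.0423 without and 0.00223 with the block). These 3 calls without the block passed in 1 of the 6 fits that leave out 1 library, the one without FSS replicate 3. In the other 5 of these fits no member passed. Few genes of any kind passed there: of all 10899 tested genes 3 to 27 rose and 0 to 8 fell. Without FSS replicate 3, 291 rose and 176 fell. Without both libraries numbered 3, 4 HIF genes rose, P4ha2 among them and Kdm3a being the fourth, against 3.69% of all genes.

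**Figure D1:**
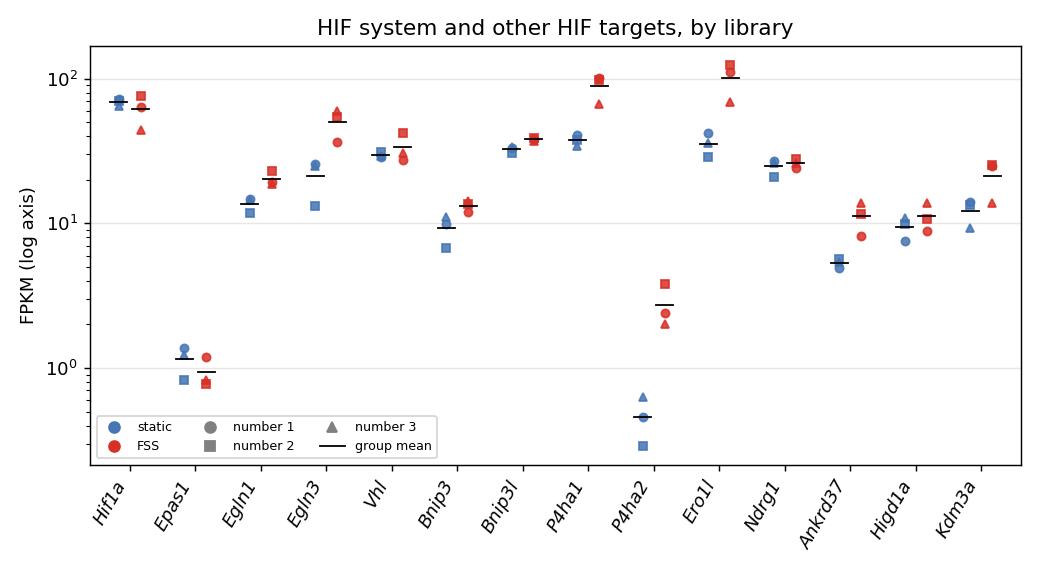
FPKM (log axis) of the 14 HIF genes in each library, static in blue and FSS in red, with the replicate number as the symbol and the group mean of 3 as a line. P4ha1, P4ha2, Ero1l, Egln3 and Ankrd37 lie higher in all FSS libraries than in any static one, while Hif1a, Epas1, Vhl, Ndrg1, Higd1a and Kdm3a overlap.

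Among the subunits and sensors, the messenger of the HIF subunits did not pass. Hif1a, the main alpha subunit, stood at 72.74, 70.37 and 65 FPKM in static and 63.82, 76.65 and 44.33 in FSS libraries. The groups overlapped, and the limma adjusted p was 0.715 without and 0.257 with the block. Epas1, which encodes the other alpha subunit HIF2A, was near 1 FPKM throughout (0.77 to 1.38). Vhl, the substrate receptor of the ubiquitin ligase, was at 28.88 to 31.14 and 27.49 to 42.56 FPKM and did not pass either fit.

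Egln3 and Egln1, prolyl hydroxylases of the alpha subunits and themselves HIF targets, were higher with the block. Egln3 read 25.81, 13.14 and 25.02 FPKM in static and 36.58, 54.41 and 59.85 in FSS libraries, with no overlap. Its ratio within pairs was uneven, at 1.42, 4.14 and 2.39, and static replicate 2 was the lowest library. The log2 difference was 1.23 ± 0.30 (SE; limma adjusted p = 0.0896 without and 0.00787 with the block). Egln1 went from 14.69, 11.83 and 14.43 to 19.31, 23.18 and 18.86 FPKM (limma adjusted p = 0.141 without and 0.0165 with the block).

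Ankrd37, an ankyrin repeat gene known as a HIF target, had tight static values of 4.91, 5.71 and 5.38 FPKM and FSS values of 8.24, 11.56 and 13.79. The limma adjusted p was 0.0692 without and 0.00248 with the block. Kdm3a, a histone demethylase that needs oxygen, read 14.02, 13.31 and 9.24 FPKM in static and 24.89, 25.38 and 13.78 in FSS libraries. FSS replicate 3 fell below static replicate 1, so the groups overlapped, yet each pair was higher, by 1.78, 1.91 and 1.49 times (limma adjusted p = 0.208 without and 0.00304 with the block).

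The mitophagy receptor gene Bnip3 read 9.97, 6.79 and 11.01 FPKM in static and 12.03, 13.66 and 14.26 in FSS libraries, and it too rose in the blocked fit (limma adjusted p = 0.0296, against 0.239 in the other). Its relative Bnip3l was at 30.82 to 33.69 and 37.16 to 38.85 FPKM. That step of 1.17 times separated the groups without passing either fit (limma adjusted p = 0.484 without and 0.0928 with the block; 0.00779 with block and scaling). Higd1a, a mitochondrial protein of the hypoxia response, had a log2 difference of 0.21 and rose only with block and scaling (limma adjusted p = 0.0226). Ndrg1, a stress-responsive gene often induced by hypoxia, was at 21.03 to 27.22 and 24.26 to 27.88 FPKM, with a ratio of means of 1.05.

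The glycolytic genes gave no call without the block: 0 of 23 tested were higher and 0 lower by limma. At an unadjusted p under 0.05 there were 3 higher and 2 lower, against 465 and 1504 of all 10899 tested genes. With the block 5 rose (Slc2a1, Slc2a3, Pfkl, Gpi1 and Aldoa) and 3 fell (Pfkfb4, Hk3 and Slc16a1), against 7.73% and 25.1% of all genes. With block and scaling 11 rose and 3 fell (19.2% and 16.8% of all genes). The median over the 23 was 0.16 log2, and 0.03, 0.27 and 0.18 in pairs 1 to 3. Eno2, the neuronal enolase, did not reach the filter and was at 0.25 to 0.72 FPKM in static and 0.32 to 1.52 in FSS libraries.

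Glucose enters through GLUT1, encoded by Slc2a1, which was at 97.31, 71.46 and 84.01 FPKM in static and 121.91, 139.53 and 156.54 in FSS libraries. The groups did not overlap, and the mean was 1.65 times as high under FSS (limma adjusted p = 0.101 without and 0.00599 with the block). Slc2a3, for the high-affinity transporter GLUT3, was far lower, at 0.76, 1.22 and 1.49 and then 1.88, 2.06 and 2.02 FPKM. It also rose with the block (limma adjusted p = 0.0168 against 0.19 without it), and it made up 0.775 to 1.74% of the summed FPKM of both transporters in any library.

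At the first step, hexokinases trap glucose in the cell. Hk2, a HIF-responsive hexokinase, was the most abundant in 4 of 6 libraries and read 84.25, 56.61 and 69.76 FPKM in static and 70.96, 81.03 and 63.39 in FSS libraries, overlapping (limma adjusted p = 0.943 without and 0.837 with the block). Hk3, the hexokinase of myeloid cells, read 59.56, 61.17 and 88.34 FPKM and then 37.5, 48.81 and 61.02. It fell with the block (limma adjusted p = 0.00806, against 0.327 without it), to 0.63, 0.798 and 0.691 times the static level of its pair. Hk1, the widely expressed form, had a mean of 25.2 ± 6.51 and 30.9 ± 5.02 FPKM (SD, n = 3). It passed neither fit and rose with block and scaling (limma adjusted p = 0.00411).

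The makeup of the hexokinases is given as a description of FPKM shares. Hk3 was 36.3, 43.6 and 46.3% of the summed FPKM of the 3 genes in static and 28.0, 30.1 and 38.3% in FSS libraries. It was lower in each pair, while the groups overlapped. Hk1 was 12.4 to 17.1% and 18.9 to 21.9%, without overlap. Their sum, at 140 to 191 and 134 to 162 FPKM, overlapped.

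Phosphofructokinase commits the sugar to glycolysis, and its platelet form Pfkp dominated with 77.3 to 88.5% of the summed FPKM of the 3 forms. Pfkp itself was at 165.88, 209.82 and 212.51 and at 145.97, 201.69 and 182.8 FPKM, and passed neither fit. The liver form Pfkl was at 33.08, 26.32 and 31.91 FPKM in static and 41.56, 48.29 and 40.6 in FSS libraries, without overlap (limma adjusted p = 0.172 without and 0.0194 with the block). Its share went from 11.1 to 16.6% up to 18.0 to 22.0%. The muscle form Pfkm stayed under 2 FPKM (0.84 to 1.84).

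The enzymes of the PFKFB family make or remove the fructose bisphosphate that switches phosphofructokinase on. Pfkfb4, a bifunctional form and known HIF target, read 38.95, 39.02 and 55.96 FPKM in static and 18.4, 24.06 and 27.98 in FSS libraries. All FSS values were below all static ones, at 0.472, 0.617 and 0.5 times the static level of their pairs. The log2 difference was -0.90 ± 0.22 (SE; limma adjusted p = 0.0932 without and 0.00166 with the block). It also fell without FSS replicate 3, and without both libraries numbered 3, where it was the 1 glycolytic gene to do so (against 3.42% of all genes).

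Pfkfb3, the form with the strongest kinase activity and also a known HIF target, was at 14.2, 10.77 and 7.73 FPKM in static and 14.8, 15.92 and 9.02 in FSS libraries. It passed neither fit (limma adjusted p = 0.705 without and 0.12 with the block) and rose with block and scaling (0.0145). The ratio of Pfkfb3 to Pfkfb4 was 0.365, 0.276 and 0.138 in static and 0.804, 0.662 and 0.322 in FSS libraries. Across pairs it was 2.21, 2.4 and 2.33 times as high under FSS, although the groups overlapped because number 3 was low in both. This ratio was taken up after its values were seen and is given without a test.

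**Figure D2:**
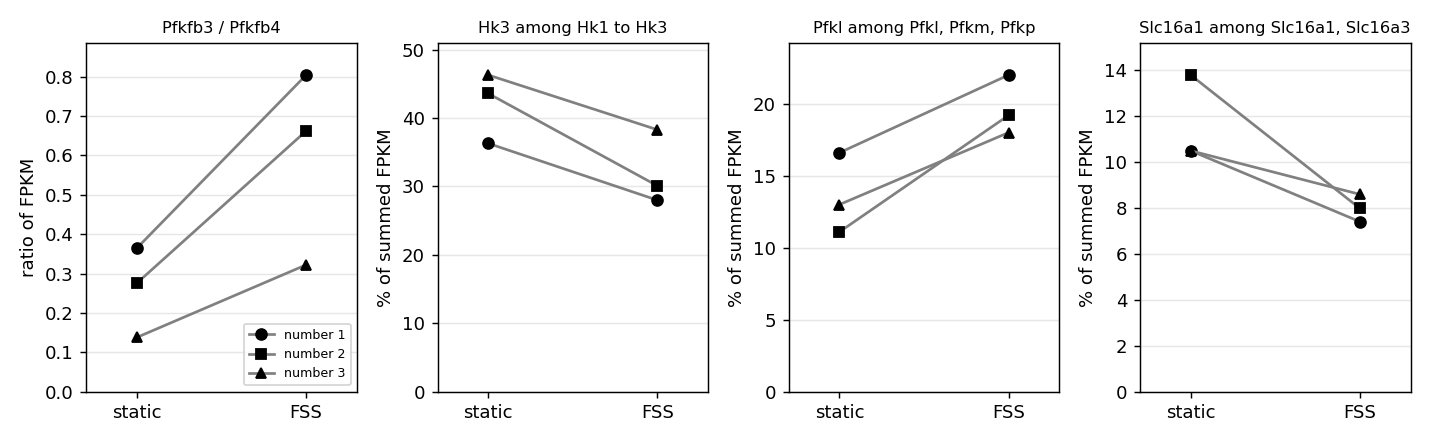
The ratio of Pfkfb3 to Pfkfb4 FPKM (first panel) and the share (%) of Hk3, Pfkl and Slc16a1 in the summed FPKM of their families (other panels), with a line from the static to the FSS library of each replicate number. In every panel all 3 lines run in one direction, and the Pfkfb ratio goes from 0.365 to 0.804 in number 1.

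Most other enzymes of the pathway had abundant messengers. Gapdh, the dehydrogenase of the middle of the pathway, was the highest of the members, at 1644.92, 1784.27 and 3123.32 FPKM in static and 1675.35, 2022.41 and 3777.17 in FSS libraries. Within pairs it differed by 1.02, 1.13 and 1.21 times, and the limma adjusted p was 0.877 without and 0.0729 with the block. The enolase Eno1 read 439.44, 498.63 and 910.37 and then 429.35, 537.45 and 992.6 FPKM, and the pyruvate kinase gene Pkm 385.41, 424.16 and 715.83 and then 396.86, 527.33 and 819.17. Each library numbered 3 stands above the other 2 of its group in these genes.

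Gpi1 and Aldoa, which act before Gapdh, rose with the block. Gpi1, the isomerase, read 172.19, 187.39 and 345.46 FPKM in static and 210.38, 257.48 and 454.4 in FSS libraries. It differed by 1.22, 1.37 and 1.32 times within pairs (limma adjusted p = 0.658 without and 0.0079 with the block). Aldoa, the aldolase of most tissues, read 670.96, 746.37 and 1293.88 and then 749.92, 874.7 and 1585.56 FPKM, with ratios of 1.12, 1.17 and 1.23 within pairs (limma adjusted p = 0.808 without and 0.0218 with the block). Its paralog Aldoc was at 14.86 to 28.5 FPKM and passed neither fit.

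Tpi1 (triose isomerase), Pgk1 (phosphoglycerate kinase) and Pgam1 (mutase) had ratios of group means of 1.21, 1.08 and 1.02, and none passed with or without the block. With block and scaling Tpi1 and Pkm rose (limma adjusted p = 0.0121 and 0.0407), as did Pfkm (0.0141). Several of these genes have processed copies elsewhere in the genome. How the authors' counting divided reads among such copies is not given in the sources used here, so their absolute levels are uncertain.

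No gene of lactate production or export rose in either fit. Ldha, lactate dehydrogenase A, was at 277.34, 292.85 and 478.72 FPKM in static and 252.76, 293.83 and 489.01 in FSS libraries, which is 0.911, 1.0 and 1.02 times within pairs (limma adjusted p = 0.97 without and 0.745 with the block). Slc16a3, for the lactate exporter MCT4, was at 48.17 to 71.97 and 51.99 to 69.66 FPKM. Slc16a1, for the related transporter MCT1, was lower in every FSS library, at 6.7, 7.73 and 8.45 and then 4.16, 6.05 and 6.03 FPKM, and fell with the block (limma adjusted p = 0.0149 against 0.265 without it). Pdk1, a kinase that inactivates pyruvate dehydrogenase, was at 5.98 to 8.2 and 6.94 to 9.89 FPKM and rose only with block and scaling (limma adjusted p = 0.0241).

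**Figure D3:**
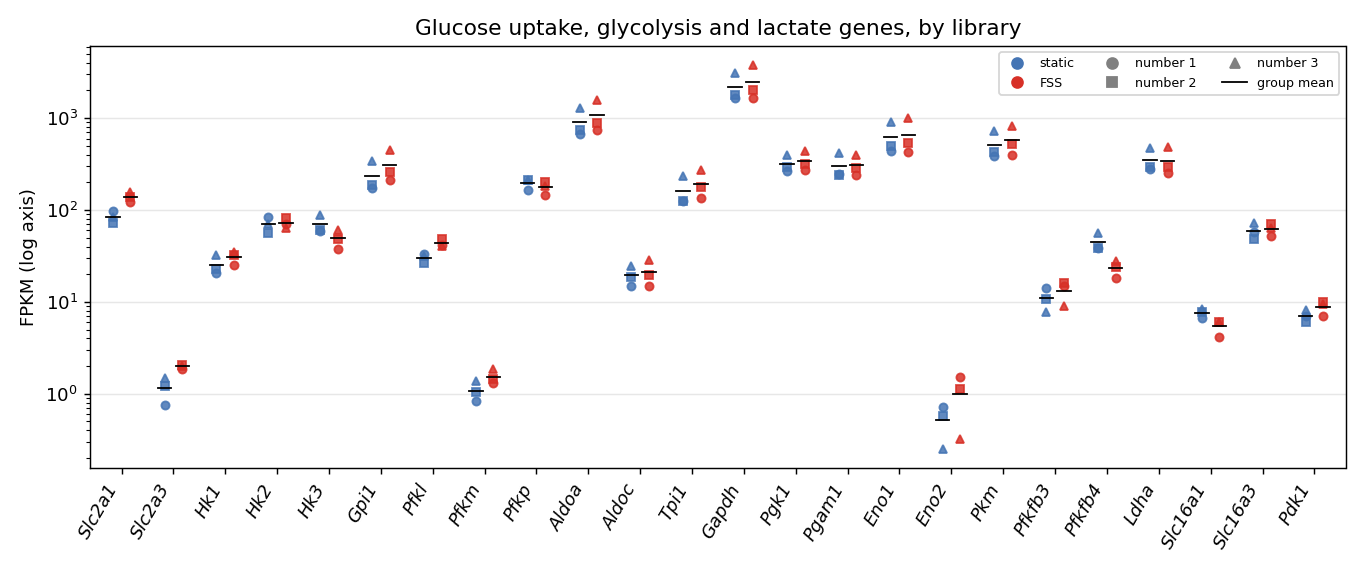
FPKM (log axis) of the 24 glycolytic genes in each library, static in blue and FSS in red, with the replicate number as the symbol and the group mean of 3 as a line. In Gpi1, Aldoa, Gapdh, Eno1, Pkm and Ldha the triangles of number 3 lie above the other symbols in both groups, while Slc2a1 is higher and Pfkfb4 lower in all FSS libraries.

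The members also differed by replicate number, and there the 2 sets were unlike in their counts. With the group in the model, 13 of 23 glycolytic genes were higher and 1 lower in number 3 than in numbers 1 and 2 (limma adjusted p under 0.05), against 13.7% and 29.3% of all genes. Of the HIF genes 0 were higher and 2 lower. Number 3 was singled out after the principal components were seen. Eno1 gave 1.00 log2 for number and 0.07 for FSS, Gapdh 0.95 and 0.16, and Gpi1 0.95 and 0.38.

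Summed over the 24 glycolytic genes, the level was 4825, 5170 and 8617 FPKM in static and 4924, 5996 and 9913 in FSS libraries. By contrast Ero1l gave 1.47 log2 for FSS and -0.36 for number, and P4ha1 1.20 and -0.38. Kdm3a differed in both, by 0.73 for FSS and -0.67 for number, and Pfkfb3 was also lower in number 3 (-0.66). Of 7 tested neutrophil markers Ngp and Ltf were higher in number 3 and 0 were lower, with a median of 0.44 log2 over the 7. Of 6 macrophage markers 1 was higher and 2 were lower, and of 6 tested dendritic markers 0 and 2. The shares over all genes were 13.7% higher and 29.3% lower. The part of these cell types in the glycolytic difference was not tested.

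**Figure D4:**
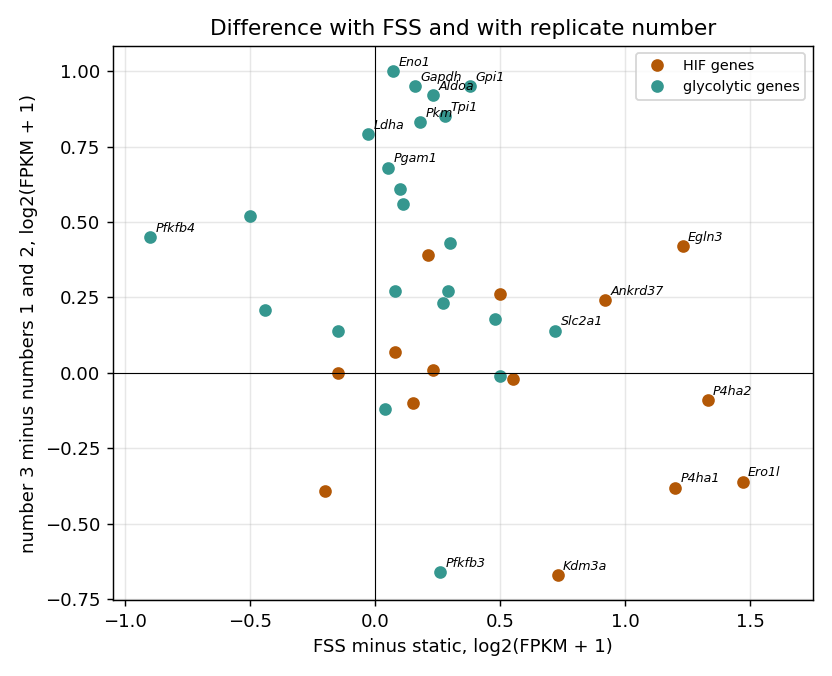
Each point is 1 of the 37 tested members, with the FSS minus static difference on the x axis and the difference of number 3 from numbers 1 and 2 on the y axis (both log2(FPKM + 1), from limma). Some glycolytic genes, such as Eno1 (0.07 and 1.00), lie along the y axis, and others, such as Pfkfb4 (-0.90 and 0.45) and Slc2a1 (0.72 and 0.14), more along the x axis. Among the HIF genes Ero1l (1.47 and -0.36) lies along the x axis. Kdm3a (0.73 and -0.67) is far out on both axes, and Hif1a (-0.20 and -0.39) is farther out on the y axis.

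Pair by pair, 10 of 14 HIF genes and 13 of 23 glycolytic genes were higher under FSS in all 3 pairs, against 17.1% of all genes tested. In all 3 pairs 1 HIF gene (Epas1) and 4 glycolytic genes (Pfkfb4, Hk3, Slc16a1 and Pfkp) were lower, against 47.3% of all genes. The groups did not overlap, with FSS higher, for 8 HIF and 3 glycolytic genes (5.1% of all genes), and with FSS lower for 0 and 2 (20.4% of all genes). P4ha2, tested only through its FSS values, is counted among these 8 and among the 10 HIF genes higher in all 3 pairs. Among the HIF genes that were higher throughout, pair 2 had the widest step except in Ankrd37 and Higd1a, where pair 3 had it.

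**Figure D5:**
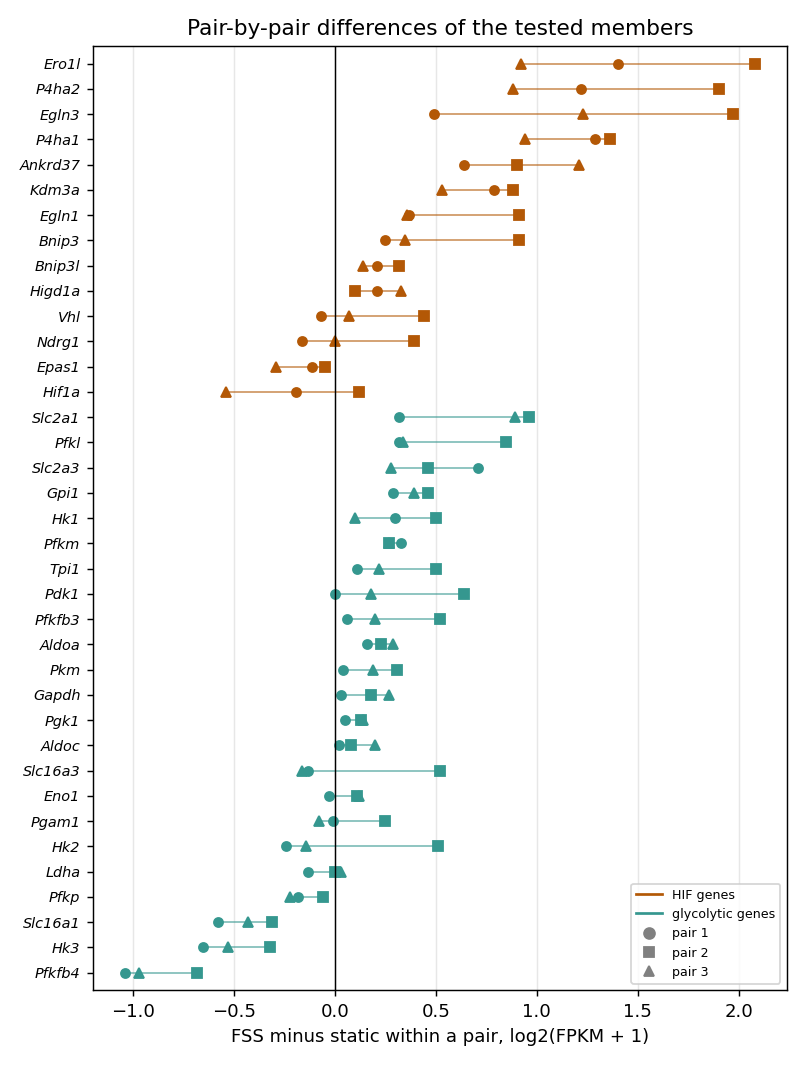
Difference between the FSS and the static library of the same replicate number, in log2(FPKM + 1), for the 37 tested members, with 1 symbol per pair and a line over their range. Ero1l, P4ha1 and P4ha2 lie at or above 0.88 in all 3 pairs, Pfkfb4 at or below -0.68 in all 3, and Hk2, Slc16a3 and Pgam1 cross zero.

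Other genes of the same pathways came from lists drawn up with the members. Both were chosen with earlier results of these data known, so their counts beside those of all genes are a description and not a test. Of 30 tested further HIF targets, 2 rose and 1 fell, against 0.853% and 0.862% of all genes. With the block 13 rose and 2 fell (against 7.73% and 25.1%), and with block and scaling 18 and 2 (19.2% and 16.8%). Ddit4, an mTORC1 inhibitor, rose to 2.51 times its static mean. Adm (adrenomedullin) rose from 0.62, 0.52 and 0.68 to 2.03, 2.29 and 2.68 FPKM. It was tested only through its FSS values, and without it 1 further target rose (12 with the block, 17 with block and scaling). Vegfa, the endothelial growth factor, read 21.76, 11.56 and 18.86 FPKM in static and 44.17, 44.53 and 36.13 in FSS libraries (limma adjusted p = 0.0524 without and 0.00304 with the block). Cited2, which competes with HIF for the coactivators CBP and p300, fell from 25.43, 23.96 and 28.12 to 11.79, 12.61 and 9.5 FPKM (limma adjusted p = 0.0299). Without FSS replicate 3 the limma calls of Adm, Ddit4 and Cited2 held. They were lost in the other 5 fits that leave out 1 library, where 3 to 27 of all tested genes rose and 0 to 8 fell.

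Of 9 tested genes of the HIF machinery none passed limma without the block. At an unadjusted p under 0.05 there were 0 higher and 1 lower, against 465 and 1504 of all 10899 tested genes. With the block 3 fell and 0 rose, also with scaling, against 25.1% of all genes lower with the block and 16.8% with block and scaling, so that 3 of 9 is near the background. Hif1an, the asparagine hydroxylase that blocks coactivator binding, was at 6.34, 6.18 and 7.73 and then 4.78, 5.18 and 4.47 FPKM (limma adjusted p = 0.214 without and 0.0305 with the block). Egln2, the third prolyl hydroxylase, was at 15.18, 13.64 and 20.09 and then 9.32, 11.81 and 13.44 FPKM, opposite in sign to Egln1 and Egln3 (limma adjusted p = 0.294 without and 0.0199 with the block).

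Of 11 tested other glycolytic isoforms and side enzymes, 1 fell and 0 rose. With the block 3 fell and 0 rose, near the 25.1% of all genes that fell, and with block and scaling 3 fell and 3 rose (16.8% and 19.2% of all genes). The call without the block was Pfkfb2, another member of the Pfkfb family, from 3.69, 4.28 and 3.38 to 1.34, 1.74 and 1.13 FPKM. That is a mean of 0.371 times the static level (log2 difference -1.0 ± 0.16, SE; limma adjusted p = 0.0383 without and 0.000883 with the block). The call was kept without FSS replicate 3. It was lost in the other 5 fits with 1 library left out, where 0 to 8 of all tested genes fell. Tigar, a phosphatase of the same fructose bisphosphate, was at 6.28, 8.26 and 8.4 and then 4.3, 5.22 and 4.31 FPKM. Bpgm, the mutase of the red cell side branch, was at 1.42 to 2.02 and 0.63 to 1.22 FPKM. With the block Tigar and Bpgm fell, at limma adjusted p = 0.00543 and 0.0106 in that order (0.114 and 0.184 when no block was used).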

How the data were processed

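RNA was measured in 6 libraries, 3 static and 3 FSS, grouped by their titles. HISAT and Bowtie2 are listed, per the submitters' processing notes, with neither role nor version. Quantifier, build, annotation and strand use: not given in the sources used here. The authors deposited 22899 genes, and the file headers state no unit for their values. They were read as FPKM as deposited, on the following grounds. The totals differ (413898 to 470596), while value times transcript length sums to nearly one constant in all libraries but FSS replicate 3. Relative to the constant an FPKM implies, the sums were 0.589 to 0.608 with median and 1.255 to 1.277 with longest transcripts. In FSS replicate 3 they were lower, at 0.552 and 1.143. In 4828 genes all values were blank. The values of all 6 libraries were the same in the series table and the sample files. Depth is unknown, so no counting interval is given.

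The 10899 genes that reached 1 FPKM in 3 or more libraries were tested with limma 3.58.1 in R 4.3.3 on log2(FPKM + 1), with a mean-dependent prior variance, two-sided. The log2 scale understates changes of low genes. Leave-one-out fits used the same 10899 genes. Deviations from group means correlated across genes at 0.792, 0.664 and 0.866 between libraries of the same number and at -0.781 to 0.279 otherwise, so numbers were taken as pairs. Because deviations cancel within a group, high same-number values push the others down, so the second range is not separate evidence. When tested on simulated data (the FSS comparison, 10899 genes, 50 per fold), the model recovered 0% of 1.5-fold and 34% of 2-fold changes without the block and 32% and 78% with it, with 0 and 1 false calls. The simulated libraries carried the replicate-number effects of these data. Better recovery with the block was therefore built in and cannot show that the pairing is real. Alternatives were another pseudocount, filter, threshold and scaling, the block, and libraries left out.

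The members and lists were chosen with earlier results of these data known. All 38 members are accounted for, and from each wider list at most 4 genes by smallest adjusted p are named (2 where none passed). Gene symbols are those of the files, and 2 listed under older symbols were matched by RefSeq synonyms. The promoter of Ero1l was matched by gene ID.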

Additional observations from a re-analysis of the deposited data

How the results depend on the processing

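Without the block the count of HIF genes higher was 3. It stayed at 3 with a pseudocount of 0.1 and with median-ratio scaling. Of all 10899 tested genes, 93 rose without the block, 79 with that pseudocount and 158 with that scaling. The HIF count was 0 with no filter, 0 at a threshold of 0.01 and 1 with totals made equal (P4ha2). Of all tested genes, 14 of 17202 rose with no filter and 68 of 10899 with totals made equal. Without both libraries numbered 3 the HIF count was 4, and it was 0 to 4 when 1 library was left out. Of all tested genes, 402 rose without both, and 3 to 291 with 1 library left out. With the replicate block the HIF count was 8, and with block and scaling 10. With the block but without number 1, 2 or 3 it was 8, 6 and 9 (these 3 fits were chosen after seeing the data). Of all tested genes, 842 rose with the block and 2092 with block and scaling. In the 3 fits without a number 480, 563 and 1594 rose. Each HIF count above 0 here includes P4ha2, which was tested only through its FSS values. No HIF gene was lower under any of these settings. For glycolytic genes, 0 were higher and 0 lower without the block. With the block 5 were higher and 3 lower, and with block and scaling 11 and 3. With the block but without number 1, 2 or 3 they were 6 and 1, 3 and 3, and 6 and 3. Of all tested genes, 2739 fell with the block and 1829 with block and scaling. In the 3 fits without a number 1642, 1948 and 2676 fell. With 1 library left out 0 glycolytic genes were higher and 0 to 1 lower, and 0 and 1 without both libraries numbered 3. Of all tested genes, 0 to 176 fell with 1 library left out and 373 without both. With no filter, 17202 genes were tested in place of 10899, and the 3 calls were lost. The cause of this loss and of the other differences between settings was not tested.

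Of the members called with the block, Aldoa alone turned sign in any of these settings. When 1 library was left out, the log2 difference ran from -0.10 to 0.52 for Aldoa, -0.13 to 0.31 for Aldoc, -0.28 to 0.39 for Eno1, -0.19 to 0.45 for Gapdh, -0.37 to 0.01 for Hif1a, -0.10 to 0.18 for Hk2, -0.31 to 0.22 for Ldha, -0.03 to 0.14 for Ndrg1, -0.14 to 0.31 for Pgam1, -0.09 to 0.28 for Pgk1, -0.10 to 0.46 for Pkm, -0.06 to 0.23 for Slc16a3 and -0.03 to 0.27 for Vhl. Median-ratio scaling, with or without the block, turned Pfkp to 0.01 and Ldha to 0.13, and Ldha was 0.03 with totals made equal. With the block and without number 1 Ldha was 0.02, and without number 2 Hk2 was -0.19, Pgam1 -0.05, Slc16a3 -0.15 and Ndrg1 -0.08. Depth is unknown, so low genes such as P4ha2, Slc2a3, Pfkm and Epas1 carry a counting error that cannot be given.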

Other observations

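None of 8 tested pentose phosphate genes passed limma without the block. At an unadjusted p under 0.05, 0 were higher and 2 lower, against 465 and 1504 of all 10899 tested genes. The median of the 8 was -0.26 log2, where that of all tested genes was -0.12. In all 3 pairs 6 of 8 were lower, against 47.3% of all genes. With the block 3 fell and 0 rose, near the 25.1% of all genes that fell, and the counts were the same with block and scaling (16.8% of all genes lower). Pgd, the second dehydrogenase of the route, was at 213.55, 217.63 and 285.15 FPKM in static and 121.28, 157.37 and 201.88 in FSS libraries (limma adjusted p = 0.227 without and 0.00369 with the block). Rpia, which isomerises ribose phosphate, was at 9.47 to 11.16 and 6.03 to 8.45 FPKM. G6pdx, the entry enzyme, named after its values were seen, was at 67.18, 78.75 and 100.22 and then 35.45, 50.09 and 74.65 FPKM, lower in each pair with overlapping groups (limma adjusted p = 0.284 without and 0.00472 with the block).

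None of 11 tested genes of pyruvate import and pyruvate dehydrogenase passed limma without the block, and their median was -0.13 log2. At an unadjusted p under 0.05, 0 were higher and 1 lower, against 465 and 1504 of all 10899 tested genes. With the block 2 fell and 0 rose, which is not above the 25.1% of all genes that fell. Pdp2 and Pdp1 are phosphatases that reactivate the complex. Pdp2 was at 4.48, 5.79 and 6.1 and then 2.97, 3.23 and 2.52 FPKM, and Pdp1 at 3.87 to 5.64 and 2.9 to 4.11 FPKM. With block and scaling Pdp2 alone fell. Of 11 genes of gluconeogenesis and glycogen none passed limma without the block (0 higher and 0 lower also at an unadjusted p under 0.05), with a median of -0.01 log2. With the block Gyg, the primer of glycogen synthesis, rose from a mean of 68.5 to 88.2 FPKM, and with block and scaling 4 rose (7.73% and 19.2% of all genes higher). Gys1, glycogen synthase, was at 8.04 to 10.86 and 11.75 to 17.66 FPKM. Fbp1, the fructose bisphosphatase, named after its values were seen, was at 48.53, 24.32 and 190.61 FPKM in static and 42.94, 22.47 and 174.56 in FSS libraries, and number 3 was the highest in both groups.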
